A study of Mus musculus with 16 samples.

Results

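The 8 genes described here encode suppressive cytokines and the adenosine pathway of regulatory T cells (Treg). They were taken by symbol (Il10, Ebi3, Il12a, Fgl2, Entpd1, Nt5e, Ada and Adora2a) from a table of 49585 genes, and all 8 were present in it. RNA was sequenced from sorted CD4-positive T cells of BALB/c-background mice whose Foxp3 gene carries a green fluorescent reporter, Foxp3IRES-GFP, an allele that all 4 groups share. Pregnant uterine Treg were sorted as Foxp3-positive, CD25-negative cells from the uterus at days 6 to 8 of pregnancy per the source labels, and uterine Treg by the same markers from the uterus of mice that were not pregnant. Lymph node Treg were Foxp3-positive, CD25-positive cells from the para-aortic nodes of non-pregnant mice, and uterine CD4conv were conventional, Foxp3-negative CD4-positive cells from the non-pregnant uterus. There were 4 libraries a group, made from pools of 20 mice, or of 3 to 8 mice where pregnant. The titles of 3 pregnant libraries give a last day of 9, 10 or 11 in place of 8, and the age of the mice is not given in the sources used here. Pregnant uterine Treg and CD4conv were sequenced in batch 1, uterine and lymph node Treg in batch 2.

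Treg restrain other immune cells partly through secreted proteins and partly by changing the nucleotides around them. Interleukin 10, encoded by Il10, acts on antigen-presenting cells and T cells. Ebi3 and Il12a encode the subunits of the heterodimer interleukin 35, and each also pairs with another chain, Ebi3 with the Il27 product in interleukin 27 and Il12a with the Il12b product in interleukin 12. Fgl2 encodes a fibrinogen-like protein whose secreted form binds inhibitory Fc receptors. In the adenosine pathway, the ectonucleotidase encoded by Entpd1 (CD39) degrades extracellular ATP to AMP, and the ecto-5'-nucleotidase encoded by Nt5e (CD73) converts AMP to adenosine. Adora2a encodes the receptor through which adenosine raises cyclic AMP in T cells, and Ada encodes adenosine deaminase, which removes adenosine.

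Library totals, in units of 1000000 counts (M), were 3.57 to 15.2 M in pregnant uterine Treg, 2.02 to 5.62 M in uterine Treg, 1.72 to 6.30 M in lymph node Treg and 7.67 to 12.3 M in CD4conv. Levels are given in CPM, the count of a gene per 1000000 counts of its library. Reads also fell on olfactory and vomeronasal receptor genes, which T cells do not use. At that rate over all exonic bases, such reads amount to 8.68% to 53.5% of counts in pregnant uterine Treg, 11.5% to 34.9% in uterine Treg, 9.20% to 38.6% in lymph node Treg and 9.40% to 21.7% in CD4conv. The rate times the exonic length of a gene is called its background level below. Foxp3 averaged 475 ± 318 CPM in pregnant uterine Treg, 417 ± 210 CPM in uterine Treg and 559 ± 182 CPM in those of the lymph node, against 1.85 ± 1.52 CPM in CD4conv (SD, n = 4 each). The 5 T cell markers summed to 745 to 3079, 1100 to 3602, 1815 to 2879 and 1001 to 2161 CPM in the same order of groups. The CD4conv libraries also held markers of other cells. The 7 plasmacytoid dendritic cell markers summed to 181 to 550 CPM in pregnant uterine Treg, 88.5 to 491 CPM in uterine Treg, 166 to 299 CPM in lymph node Treg, against 2524 to 5977 CPM in CD4conv, and Cox6a2 alone was at 0 in a group, uterine Treg. The 9 macrophage markers summed to 61.1 to 329, 170 to 1036, 30.8 to 88.4 and 149 to 9955 CPM in that order of groups. The 7 dendritic cell and MHC class II markers summed to 124 to 216, 81.7 to 349, 92.0 to 143 and 1800.5 to 15117 CPM, and the 7 markers of NK and CD8 T cells to 54.6 to 76.3, 32.6 to 74.3, 60.2 to 109 and 624 to 2291 CPM.

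Averaged over all 16 libraries, the 8 genes stood above their background level by factors that ranged from 3.00 to 10.7. Il10 (10.7 times), Adora2a (8.51 times), Fgl2 (7.82 times) and Nt5e (7.65 times) were over 5 times background. Entpd1 (4.81 times), Il12a (3.62 times), Ada (3.41 times) and Ebi3 (3.00 times) were under it, so the levels of these 4 genes rest more on the background. Per kilobase of exon, Il10 led in pregnant uterine Treg at 19.9 ± 6.72 CPM per kb, followed by Fgl2 (16.0 ± 11.1), Adora2a (15.4 ± 11.99) and Nt5e (14.2 ± 11.03), which did not differ beyond their SD. In uterine Treg Adora2a came first at 21.5 ± 6.43 CPM per kb. Fgl2 (18.6 ± 15.6), Nt5e (13.99 ± 5.10) and Il10 (13.2 ± 7.36) followed, with ranges of mean ± SD that overlapped that of Adora2a. Differences between genes were not tested. In lymph node Treg Il10 stood at 38.7 ± 6.65 CPM per kb, ahead of Nt5e at 19.9 ± 7.27 and Adora2a at 15.8 ± 8.10 CPM per kb. In CD4conv the highest were Fgl2 (16.9 ± 15.9) and Il12a (13.9 ± 8.12 CPM per kb), while Il10 (5.40 ± 2.54) and Ebi3 (2.44 ± 1.39) were the lowest. The plot of levels by library shows these groups beside the background level of each library.

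**Figure D1:**
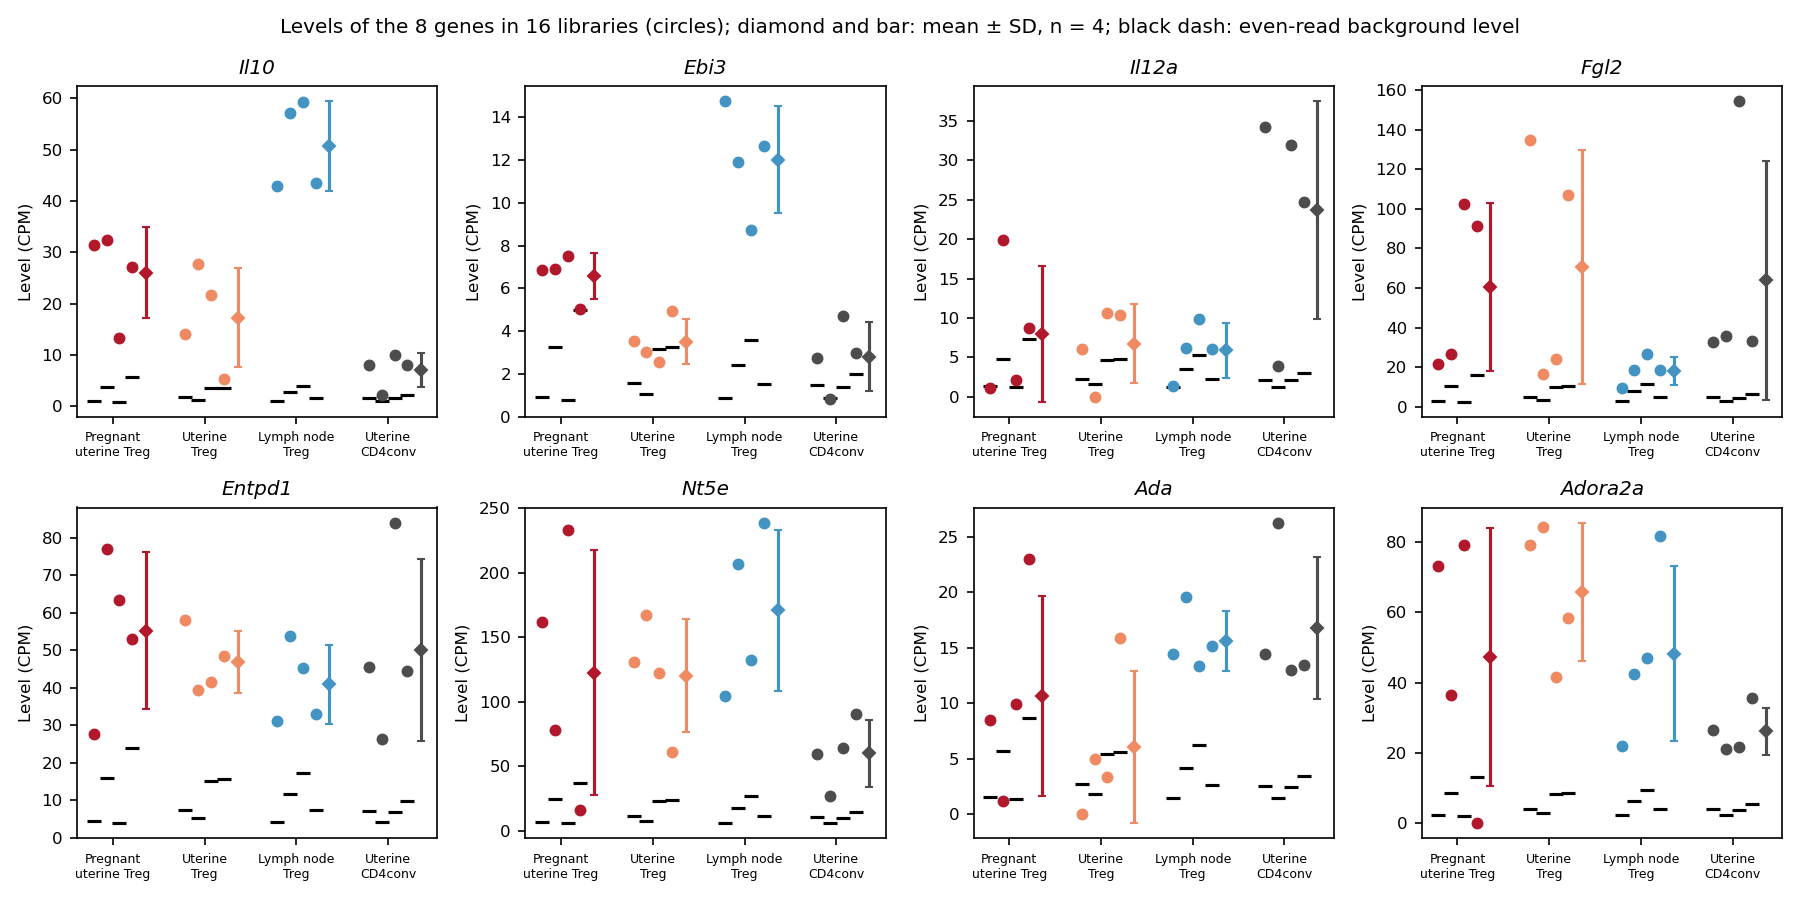
Level of each of the 8 genes (y axis, CPM) in the 4 libraries of each group (circles), with the mean ± SD (diamond and bar, n = 4) and the background level of the gene in each library (black dash). Il10 and Ebi3 are highest in the 4 lymph node Treg libraries, and Adora2a and Nt5e fall to or below background in 1 pregnant uterine Treg library.

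Il10, at chr1:131019845-131024974 (GRCm38, plus strand), showed the clearest order among the groups. It stood at 31.4, 32.4, 13.3 and 27.1 CPM in pregnant uterine Treg, at 14.2, 27.8, 21.6 and 5.44 CPM in uterine Treg, at 43.0, 57.2, 59.4 and 43.5 CPM in lymph node Treg, and at 7.98, 2.28, 9.96 and 8.08 CPM in CD4conv. Every lymph node library lay above every uterine library, and every pregnant uterine Treg library lay above every CD4conv library, while uterine Treg overlapped both pregnant uterine Treg and CD4conv. Here and for Ebi3, lymph node Treg were compared in a fit with uterine Treg only. They differ from pregnant uterine Treg and CD4conv in batch and gate as well as tissue. Il10 was above its background level in 16 of 16 libraries. The lowest Treg value came from uterine Treg replicate 5, at 11 counts and 1.48 times background. That library also had the lowest Foxp3 of its group, 227 CPM, and the highest sums of fibroblast markers (1058 CPM) and macrophage markers (1036 CPM) of the 12 Treg libraries. Their part in the Il10 value was not tested.

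Pregnant uterine Treg, at 26.1 ± 8.81 CPM, differed from CD4conv, at 7.07 ± 3.32 CPM (SD, n = 4 each), by a log2 fold change of 1.73 ± 0.60 (SE) in the edgeR fit over all 30096 tested genes, which did not pass (adjusted p = 0.521, with 0.0923 in DESeq2). In the edgeR fit of the 4723 protein-coding genes over 5 times background, Il10 rose by 2.22 ± 0.55 on the log2 scale (SE, adjusted p = 0.0175). It was the only call among 16 tests of the 4 genes that entered that fit, in which 4.11% of genes were called higher in pregnant uterine Treg. With each library of the 2 groups left out in turn, Il10 passed in 8 of 8 fits, with log2 fold changes of 1.92 to 2.51 and edgeR adjusted p of 0.00981 to 0.0447. These fits were chosen after seeing the data and share most of their libraries, so they are not independent. Il10 in CD4conv averaged 4.31 times background, with 1 of 4 libraries over 5 times. In pregnant uterine, uterine and lymph node Treg it averaged 9.18, 6.72 and 21.3 times background. Il10 thus entered the fit of genes above background through the Treg groups. That choice of genes used the mean of all 16 libraries, also where 1 library was left out. The passes are therefore a description of these libraries only. Pregnant uterine Treg and CD4conv both came from batch 1. They came from pregnant and non-pregnant mice, in pools of unlike size, so cell type, pregnancy and pool size cannot be told apart. Less Il10 RNA per cell and fewer cells that use Il10 cannot be told apart in bulk samples, for this gene or for the others. The CD4conv libraries also held the markers of other cells given above, whose part in the Il10 difference was not tested.

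Ebi3 and Il12a followed different orders. Ebi3, at chr17:55952640-55957022 (GRCm38, plus strand), stood at 6.87, 6.90, 7.50 and 5.04 CPM in pregnant uterine Treg, at 3.54, 3.03, 2.55 and 4.95 CPM in uterine Treg, at 14.8, 11.9, 8.73 and 12.6 CPM in lymph node Treg, and at 2.73, 0.813, 4.73 and 3.00 CPM in CD4conv. As for Il10, the 4 lymph node libraries were above all others, and the 4 pregnant uterine Treg libraries were above those of CD4conv. They were also above those of uterine Treg, but the nearest libraries, 5.04 and 4.95 CPM, hardly differed, and with TMM-scaled CPM pregnant uterine Treg overlapped both of these groups. The 5.04 CPM came from pregnant uterine Treg replicate 4, where it was 1.01 times background. Ebi3 rested on 6 to 17 counts in each uterine Treg library. Its antisense neighbour Gm16712 overlaps it and had 35, 6, 68 and 1 counts in pregnant uterine Treg, 0, 0, 0 and 8 in uterine Treg, 16, 4, 1 and 10 in lymph node Treg and 8, 22, 10 and 11 in CD4conv. The library kits do not mark strand, so reads of the shared stretch cannot be assigned to either gene.

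Il12a, at chr3:68690644-68698547 (GRCm38, plus strand), stood at 1.16, 19.9, 2.17 and 8.67 CPM in pregnant uterine Treg, at 6.02, 0, 10.6 and 10.4 CPM in uterine Treg, at 1.43, 6.19, 9.89 and 6.07 CPM in lymph node Treg, and at 34.2, 3.902, 32.0 and 24.8 CPM in CD4conv. The count of 0 in uterine Treg replicate 2 allows a level of up to 0.534 CPM (3 counts). CD4conv held the 3 highest values, and its replicate 2 lay within the range of the Treg libraries. The log2 fold change against CD4conv was -2.05 ± 0.91 (SE) for pregnant uterine Treg and -2.22 ± 0.93 for uterine Treg, and neither passed (edgeR adjusted p = 0.928 and 0.750, from unadjusted p of 0.0340 and 0.0249). Beside it, the plasmacytoid dendritic cell markers summed to 4754, 5431, 5977 and 2524 CPM in CD4conv replicates 1, 2, 3 and 5. Replicate 2 thus had the second highest sum and the lowest Il12a. In the same libraries the dendritic cell and MHC class II markers summed to 4787, 13215, 15117 and 1800.5 CPM and those of NK and CD8 T cells to 1237, 2291, 1719 and 624 CPM. The part of those markers' cells in the Il12a level was not tested.

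Promoter windows of 300 bases (250 before to 50 after a transcript start, RefSeq, GRCm38.p6) were matched for 6 of the 8 genes, in 8 windows. Those of the paired subunits are shown because their levels differed in order between the groups. The Ebi3 window is chr17:55952373-55952672, and Il12a has windows at chr3:68690394-68690693 and chr3:68691174-68691473, all on the plus strand and given 5' to 3'. None held a match to the AP-1 motif TGANTCA, the STAT motif TTCNNNGAA, the forkhead motif GTAAACA or the cyclic AMP response element TGACGTCA on either strand, so these lines have no capitals.
Ebi3: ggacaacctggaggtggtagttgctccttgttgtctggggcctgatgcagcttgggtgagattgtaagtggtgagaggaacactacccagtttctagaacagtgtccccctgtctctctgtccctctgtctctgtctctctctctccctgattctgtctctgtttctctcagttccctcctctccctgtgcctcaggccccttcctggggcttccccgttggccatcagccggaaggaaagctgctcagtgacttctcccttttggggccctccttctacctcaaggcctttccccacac
Il12a, first start: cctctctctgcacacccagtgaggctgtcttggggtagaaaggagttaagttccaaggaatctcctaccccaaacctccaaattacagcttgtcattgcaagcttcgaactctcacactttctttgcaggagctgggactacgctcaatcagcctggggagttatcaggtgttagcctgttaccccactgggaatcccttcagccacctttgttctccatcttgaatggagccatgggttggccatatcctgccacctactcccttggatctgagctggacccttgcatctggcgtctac
Il12a, second start: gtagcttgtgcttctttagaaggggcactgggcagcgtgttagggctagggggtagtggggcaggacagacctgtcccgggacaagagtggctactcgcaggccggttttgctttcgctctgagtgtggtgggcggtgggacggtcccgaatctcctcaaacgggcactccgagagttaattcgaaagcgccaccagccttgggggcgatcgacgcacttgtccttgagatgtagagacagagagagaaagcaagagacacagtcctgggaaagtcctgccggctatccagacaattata

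Per kilobase of exon, Ebi3 relative to Il12a ran from 0.512 to 8.75 in pregnant uterine Treg, from 0.354 to 0.867 in the 3 uterine Treg libraries with Il12a counts, from 1.30 to 15.2 in lymph node Treg and from 0.118 to 0.307 in CD4conv. The ratio was below 1 in all CD4conv libraries and above 1 in all lymph node libraries. Pregnant uterine Treg fell on both sides, with the ratio above 1 in replicates 1 and 3, the libraries of that group with the least background. Their partner chains did not pass either. Il12b averaged 15.8 ± 14.3 CPM in pregnant uterine Treg, 24.3 ± 15.7 CPM in uterine Treg, 16.4 ± 12.6 CPM in lymph node Treg, against 11.6 ± 7.87 CPM in CD4conv, and Il27 averaged 1.24 ± 1.22, 3.33 ± 3.09, 0.450 ± 0.516 and 5.81 ± 4.11 CPM in the same order (SD, n = 4 each). Neither gene passed in any of the 4 comparisons (edgeR over all genes).

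**Figure D2:**
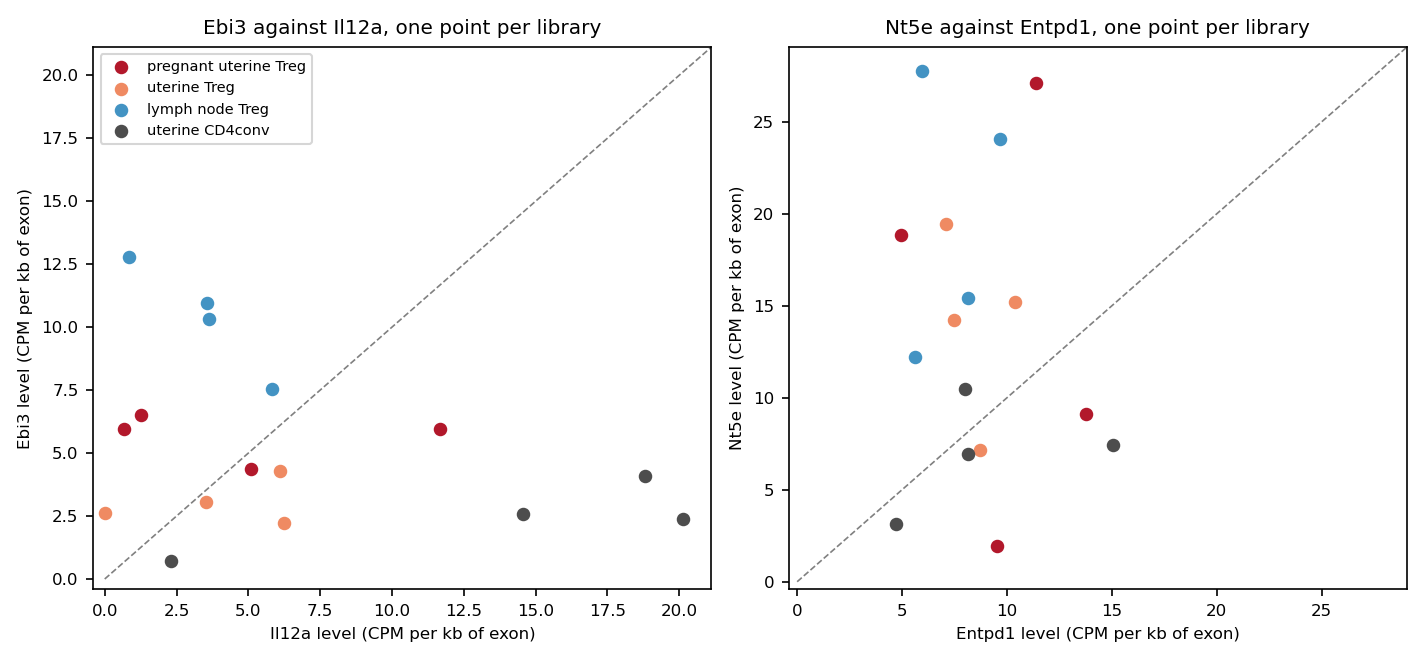
Left, Ebi3 (y axis) against Il12a (x axis), and right, Nt5e (y axis) against Entpd1 (x axis), both in CPM per kb of exon, with 1 point per library, coloured by group, and the line of equal levels dashed. The 4 CD4conv libraries lie below the line on the left, and the 4 lymph node Treg libraries lie above it in both panels.

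Fgl2, at chr5:21372642-21378374 (GRCm38, plus strand), varied more within the uterine groups than between them. It stood at 21.5, 27.0, 102.5 and 91.2 CPM in pregnant uterine Treg, at 134, 16.7, 24.2 and 107 CPM in uterine Treg, at 9.53, 18.6, 26.8 and 18.5 CPM in lymph node Treg, and at 32.6, 35.9, 154 and 33.1 CPM in CD4conv. The lymph node libraries were uniformly low, and 2 libraries in each uterine Treg group and 1 of CD4conv reached at least 91.2 CPM. Uterine against lymph node Treg gave a log2 fold change of 1.83 ± 0.71 (SE) over all genes (edgeR adjusted p = 1.00, unadjusted p = 0.0158) and of 2.13 ± 0.81 in genes above background (edgeR adjusted p = 0.293), and the groups overlapped. Without uterine Treg replicate 1 the first of these was 1.06. The fold changes among the uterine groups were near 0 with an SE of about 0.68: -0.23 for pregnant uterine Treg and -0.22 for uterine Treg, both against CD4conv, and -0.01 for pregnant against non-pregnant uterine Treg. Without CD4conv replicate 3, the first pair turned to 0.61 each. That library had the highest macrophage marker sum, 9955 CPM, but replicate 2, with 6225 CPM, had 35.9 CPM of Fgl2, and in uterine Treg replicate 1 Fgl2 reached 134 CPM beside 180 CPM of macrophage and 138 CPM of fibroblast markers. The part of these cells in the Fgl2 level was not tested.

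**Figure D3:**
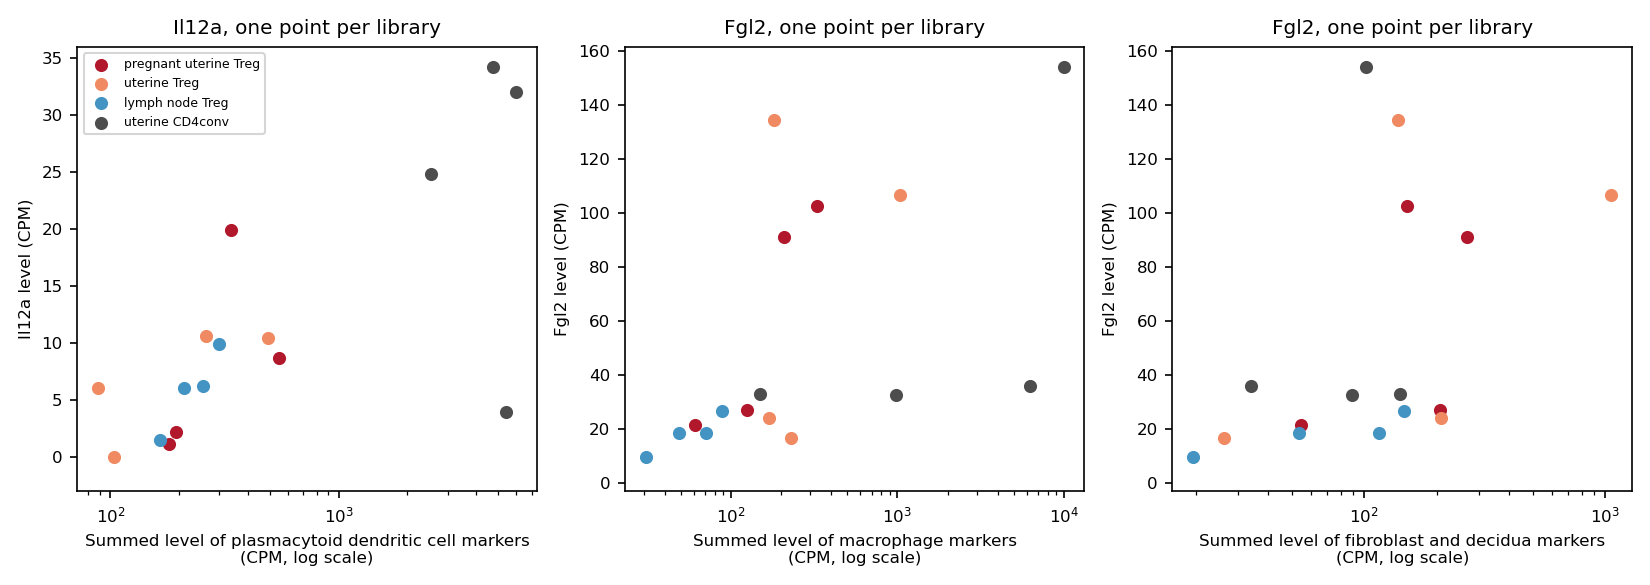
Il12a (left, y axis, CPM) against the summed level of 7 plasmacytoid dendritic cell markers, and Fgl2 (middle and right, y axis, CPM) against that of 9 macrophage and 6 fibroblast and decidua markers (x axes, CPM, log scale), with 1 point per library, coloured by group. The CD4conv libraries stand apart on the left panel, 1 of them with low Il12a, and high Fgl2 occurs at macrophage sums from 180 to 9955 CPM.

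Of the windows that matched, Fgl2 and Ada held motif matches and are shown for that. The Fgl2 window, chr5:21372423-21372722 on the plus strand, held a STAT match 36 bases and an AP-1 match 16 bases before the start. The Ada window, chr2:163750190-163750489 on the minus strand, held a STAT match 90 bases before the start. Matches are in capitals, and the STAT and AP-1 matches do not overlap. Of 32851 promoter windows in the table, 8.30% held the STAT motif, 7.81% AP-1, 3.65% the forkhead motif and 1.79% the cyclic AMP response element.
Fgl2: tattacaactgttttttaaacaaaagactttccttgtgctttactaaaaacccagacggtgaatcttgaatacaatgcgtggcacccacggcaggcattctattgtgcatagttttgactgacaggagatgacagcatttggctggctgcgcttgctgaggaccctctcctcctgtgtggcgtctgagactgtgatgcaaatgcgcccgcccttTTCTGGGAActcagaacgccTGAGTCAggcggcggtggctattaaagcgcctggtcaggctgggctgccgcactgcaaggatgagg
Ada: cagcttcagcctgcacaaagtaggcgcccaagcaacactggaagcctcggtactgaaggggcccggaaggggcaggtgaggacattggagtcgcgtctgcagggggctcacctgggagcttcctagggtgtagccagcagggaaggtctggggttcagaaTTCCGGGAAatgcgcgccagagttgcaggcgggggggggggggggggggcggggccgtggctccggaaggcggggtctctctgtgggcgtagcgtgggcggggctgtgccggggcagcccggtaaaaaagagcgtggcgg

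The enzymes that make adenosine differed in spread. Entpd1, at chr19:40612366-40741602 (GRCm38, plus strand), stood at 27.6, 76.9, 63.5 and 53.2 CPM in pregnant uterine Treg, at 58.0, 39.5, 41.6 and 48.5 CPM in uterine Treg, at 31.3, 53.8, 45.4 and 33.1 CPM in lymph node Treg, and at 45.5, 26.3, 84.1 and 44.6 CPM in CD4conv. All 4 groups overlapped, and Entpd1 was above background in 16 of 16 libraries. Its log2 fold changes were 0.12 (uterine against lymph node Treg), -0.33 (uterine Treg against CD4conv), 0.26 (pregnant against non-pregnant uterine Treg) and -0.07 (pregnant uterine Treg against CD4conv), each with an SE of 0.47 or 0.48, so that changes of that size could not be told from 0.

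Nt5e, at chr9:88327197-88372092 (GRCm38, plus strand), stood at 162, 78.4, 233 and 16.5 CPM in pregnant uterine Treg, at 131, 167, 122 and 61.4 CPM in uterine Treg, at 105, 207, 133 and 239 CPM in lymph node Treg, and at 59.9, 27.1, 64.1 and 90.3 CPM in CD4conv. All lymph node libraries lay above all CD4conv libraries, and each uterine Treg group overlapped CD4conv. Lymph node Treg and CD4conv were not compared in a fit, and they differ in tissue, cell type, gate and batch. The share of all genes set apart between them was not counted. Adora2a, at chr10:75316877-75334784 (GRCm38, plus strand), stood at 73.3, 36.6, 79.2 and 0 CPM in pregnant uterine Treg, at 79.3, 84.2, 41.6 and 58.4 CPM in uterine Treg, at 21.9, 42.4, 47.1 and 81.7 CPM in lymph node Treg, and at 26.6, 21.1, 21.6 and 35.6 CPM in CD4conv. Uterine Treg lay above CD4conv in every library by CPM but overlapped it by TMM-scaled CPM. In pregnant uterine Treg, 3 libraries lay above all of CD4conv and replicate 4 was at 0, which allows up to 0.839 CPM (3 counts).

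The values of both genes moved with single libraries of pregnant uterine Treg. Replicate 4 had the highest background of all 16 libraries, 53.5% of counts, the lowest T cell marker sum, 745 CPM, and Foxp3 at 192 CPM. Its Nt5e was at 0.444 times background. With all libraries, Nt5e differed between pregnant uterine Treg and CD4conv by a log2 fold change of 1.23 ± 0.69 (SE) over all genes and of 1.04 ± 0.44 in genes above background (edgeR adjusted p = 1.00 and 0.159). Adora2a differed by 0.98 ± 0.83 and 0.83 ± 0.71 (edgeR adjusted p = 1.00 and 0.493). With each library of the 2 groups left out in turn, the log2 fold change over all genes ran from 0.52 to 1.62 for Nt5e and from 0.46 to 1.39 for Adora2a. The lowest values came without replicate 3 and the highest without replicate 4. In genes above background, with libraries left out in the same way as an alternative chosen after seeing the data, Nt5e ran from 0.64 (edgeR adjusted p = 0.391, without replicate 3) to 1.33 (edgeR adjusted p = 0.0292, without replicate 4). Adora2a ran from 0.54 (without replicate 3) to 1.21 (edgeR adjusted p = 0.0459, without replicate 4). Each passed in 1 of 8 such fits, that without replicate 4, in which 3.77% of 4726 genes were called higher. As that is the library with the lowest value of both genes, these passes are a description of the other libraries only. Leaving out all 5 libraries with over 30% background, chosen after seeing the data, left 2 pregnant uterine Treg and 4 CD4conv libraries. Nt5e then rose by 1.93 ± 0.37 (SE, edgeR adjusted p = 0.0153), in a fit that called 0.378% of 33091 genes higher, and Adora2a had 1.69 ± 0.43 (edgeR adjusted p = 0.0878). The pregnant uterine Treg libraries dropped, replicates 2 and 4, had the lowest values of both genes in that group. This pass is therefore also a description of the libraries kept only.

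Per kilobase of exon, Nt5e relative to Entpd1 ran from 0.201 to 3.80 in pregnant uterine Treg, from 0.821 to 2.74 in uterine Treg, from 1.90 to 4.68 in lymph node Treg and from 0.494 to 1.31 in CD4conv. Every lymph node library was above every CD4conv library, and the lowest value was that of pregnant uterine Treg replicate 4. This ratio was not tested, and lymph node Treg differ from CD4conv in tissue, cell type, gate and batch.

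Ada, at chr2:163726584-163750239 (GRCm38, minus strand), stood at 8.49, 1.25, 9.94 and 22.9 CPM in pregnant uterine Treg, at 0, 4.99, 3.40 and 15.8 CPM in uterine Treg, at 14.4, 19.5, 13.4 and 15.2 CPM in lymph node Treg, and at 14.4, 26.3, 12.97 and 13.4 CPM in CD4conv. Lymph node Treg spanned 13.4 to 19.5 CPM, while the 2 uterine Treg groups spread widely and overlapped every other group. The count of 0 in uterine Treg replicate 1 allows up to 1.06 CPM (3 counts). Ada was under its background level in 3 of the 8 uterine Treg libraries and above it in all others. Uterine Treg had log2 fold changes of -2.08 ± 0.89 (SE) against CD4conv and of -1.72 ± 0.89 against lymph node Treg (edgeR adjusted p = 0.781 and 1.00, unadjusted p = 0.0282 and 0.0645). In TMM-scaled CPM the 4 uterine Treg libraries lay below the 4 of CD4conv, but by CPM these groups overlapped. The share of all genes set apart in that way was not counted, and the comparison crosses the batches. The separation is therefore a description only.

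Across the 4 comparisons, 0 of 32 tests of the 8 genes passed an adjusted p of 0.05 in edgeR over all genes, and 0 of 32 in DESeq2, while 8 of the 32 had an unadjusted p under 0.05 in edgeR. All 8 genes passed the filter on low counts. The plot of fold changes sets the fit over all genes beside that of genes above background.

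**Figure D4:**
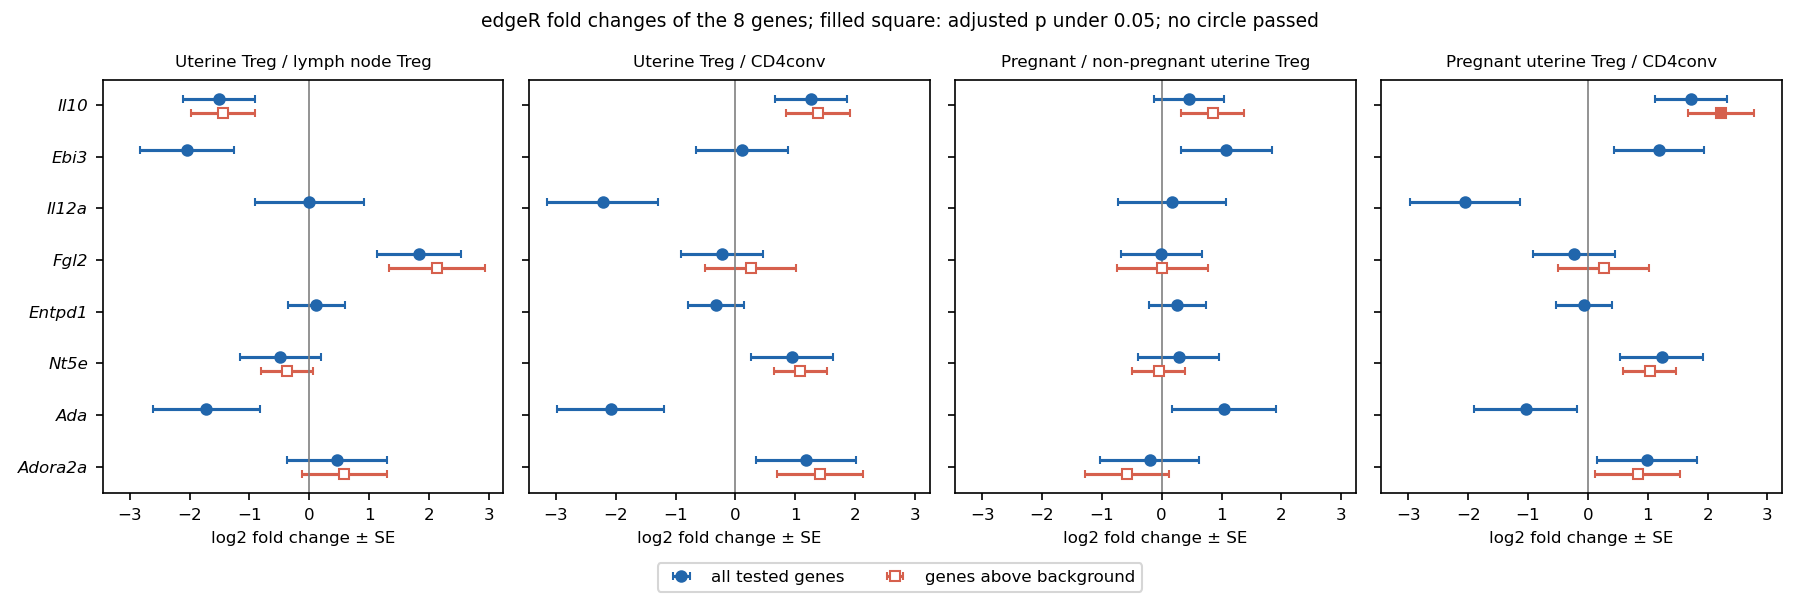
Log2 fold change ± SE (x axis, edgeR) of the 8 genes (rows) in the 4 comparisons (panels), over all 30096 tested genes (circles) and, for the 4 genes that entered, over the 4723 genes above background (squares, filled where the adjusted p is under 0.05). Only Il10 in pregnant uterine Treg against CD4conv is filled, at 2.22.

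The first comparison, within batch 2, asks how Treg of the uterus differ from those of the draining node. Il10 and Ebi3 were lower in every uterine library than in every lymph node library. Il10 averaged 17.3 ± 9.65 CPM in uterine Treg and 50.8 ± 8.71 CPM in lymph node Treg, a log2 fold change of -1.51 ± 0.60 (SE), and Ebi3 averaged 3.52 ± 1.04 and 12.01 ± 2.50 CPM, a log2 fold change of -2.04 ± 0.78. Neither passed (edgeR adjusted p = 1.00 for each, unadjusted p = 0.0188 and 0.0156, and 0.622 and 0.306 adjusted in DESeq2). A non-overlap in that direction was found for 2 of 8 genes here and for 2.18% of all tested genes. edgeR called 0.0% of all genes (905 at an unadjusted p under 0.05, and 30 called in DESeq2). The groups were also sorted differently for CD25, whose gene Il2ra averaged 96.1 ± 30.6 CPM in uterine and 295 ± 62.1 CPM in lymph node Treg, so that tissue and gate cannot be told apart.

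The second comparison, uterine Treg against CD4conv, crosses the batches, so the cell types cannot be told apart from the batches. Adora2a averaged 65.9 ± 19.7 CPM in uterine Treg, against 26.2 ± 6.70 CPM in CD4conv (log2 fold change 1.18 ± 0.84, SE), Nt5e 120 ± 43.8 and 60.3 ± 25.9 CPM (0.95 ± 0.68), and Il10 17.3 ± 9.65 and 7.07 ± 3.32 CPM (1.27 ± 0.60). Without uterine Treg replicate 2, these log2 fold changes were 0.77, 0.47 and 0.61 for Adora2a, Nt5e and Il10. Il12a and Ada had the negative fold changes given above. None of the 8 passed, against 0.518% of all genes called, and 1 of 8, Adora2a, had no overlap with higher CPM, against 1.68% of all genes. The median log2 fold change of the 8 genes was -0.06, beside -0.05 for all tested genes.

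The third comparison asks whether the uterine Treg change in early pregnancy, and again crosses the batches. Ebi3 averaged 6.58 ± 1.07 CPM in pregnant and 3.52 ± 1.04 CPM in non-pregnant uterine Treg (log2 fold change 1.08 ± 0.76, SE), Ada 10.7 ± 9.03 and 6.05 ± 6.85 CPM (1.04 ± 0.87), and Il10 26.1 ± 8.81 and 17.3 ± 9.65 CPM (0.46 ± 0.59). That of Ada was 0.65 without uterine Treg replicate 1 and 1.67 without replicate 5. The other 5 genes had log2 fold changes between -0.20 and 0.28. None of the 8 passed (edgeR adjusted p = 1.00 for each) and 0 had an unadjusted p under 0.05, against 0.0% of all genes called (822 at an unadjusted p under 0.05, and 18 called in DESeq2). Ebi3 was the 1 gene of 8 with higher, non-overlapping CPM, which 0.532% of all genes showed. The SE of these fold changes ran from 0.47 to 0.90. In the same edgeR fit, Il10 had 1.73 ± 0.60 (SE) in pregnant uterine Treg against CD4conv and did not pass. Changes larger than the SE can thus also go undetected.

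The last comparison, pregnant uterine Treg against CD4conv, lies within batch 1. It also sets pregnant against non-pregnant mice, in pools of 3 to 8 against pools of 20. Cell type, pregnancy and pool size therefore cannot be told apart in it. Il10 and Ebi3 had higher, non-overlapping CPM (2 of 8 genes, against 1.31% of all genes), and by TMM-scaled CPM only Il10 did. Ebi3 averaged 6.58 ± 1.07 CPM in pregnant uterine Treg and 2.82 ± 1.60 CPM in CD4conv, with 1.19 ± 0.75 (SE) on the log2 scale. None of the 8 passed over all genes, of which 0.432% were called. This comparison shares the CD4conv libraries with the second and pregnant uterine Treg with the third, and the first 3 share uterine Treg, so the comparisons are not independent.

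The partners, receptors and regulators of these genes were followed in 4 lists. In edgeR over all genes, 0 of their tested genes passed in any comparison. Cytokine partners and receptors (13 tested) had 1, 3, 0 and 4 genes with an unadjusted p under 0.05 in the 4 comparisons, regulators of Il10 (8 tested) had 0 in each, nucleotide and adenosine handling (19 tested) had 0, 1, 2 and 2, and purine receptors (13 tested) had 1, 3, 0 and 2. Against CD4conv the list medians for uterine Treg were -0.26, 0.33, -0.05 and -0.62 in that order of lists, beside -0.05 over all genes. For pregnant uterine Treg they were -0.09, 0.51, 0.30 and -0.90, beside 0.07. For uterine against lymph node Treg they were 0.20, -0.02, -0.17 and -0.06, beside -0.06, and for pregnant against non-pregnant uterine Treg they were -0.27, 0.33, 0.26 and 0.30, beside 0.11.

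Among the receptors and partners, the interleukin 27 receptor Il27ra averaged 193 ± 111, 262 ± 113, 361 ± 54.3 and 137 ± 70.1 CPM in pregnant uterine Treg, uterine Treg, lymph node Treg and CD4conv. The shared receptor chain Il6st averaged 100 ± 19.6, 110 ± 55.1, 171 ± 56.5 and 84.3 ± 48.1 CPM, the cytokine Tgfb1 65.2 ± 20.6, 75.1 ± 39.4, 95.4 ± 12.8 and 99.3 ± 15.2 CPM, and the interleukin 10 receptor chain Il10ra 38.1 ± 28.9, 76.7 ± 27.2, 65.5 ± 12.3 and 113 ± 43.4 CPM, in the same order. Fcgr2b, the inhibitory Fc receptor, and Slc29a3, a nucleoside transporter of lysosomes, are named here after their values were seen. Fcgr2b averaged 24.9 ± 12.4, 19.5 ± 21.6, 14.8 ± 11.3 and 132 ± 120 CPM, and in DESeq2 it fell in uterine Treg against CD4conv (log2 fold change -3.23 ± 0.91, SE, adjusted p = 0.0395). Slc29a3 averaged 13.4 ± 11.5, 27.4 ± 9.17, 20.5 ± 5.04 and 140 ± 74.3 CPM, and in DESeq2 it fell in pregnant uterine Treg against CD4conv (-3.47 ± 0.83, adjusted p = 0.00523). DESeq2 called 0.95% and 0.825% of genes lower in these comparisons, and over all genes in edgeR the adjusted p was 0.0916 for Fcgr2b and 0.111 for Slc29a3. Both genes ranked the CD4conv libraries in the same order as the macrophage, plasmacytoid dendritic cell, and dendritic cell and MHC class II marker sums did. The part of those markers' cells was not tested.

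Of the transcription factors that regulate Il10, Bhlhe40 had the highest CPM, not scaled for length, at 556 ± 339, 992 ± 429, 1199 ± 438 and 827 ± 87.4 CPM in pregnant uterine Treg, uterine Treg, lymph node Treg and CD4conv, followed by Stat3 at 391 ± 150, 290 ± 94.2, 371 ± 135 and 310 ± 19.5 CPM. In genes above background 2 of 6 regulators rose in uterine Treg against CD4conv, where 3.11% of genes did. Irf4 averaged 184 ± 70.7 CPM in uterine Treg, against 76.6 ± 18.3 CPM in CD4conv (log2 fold change 1.36 ± 0.34, SE, edgeR adjusted p = 0.0214), and Nfil3 260 ± 72.9 and 140 ± 51.6 CPM (0.97 ± 0.25, edgeR adjusted p = 0.0233). In pregnant uterine Treg against CD4conv 1 of 6 rose, Maf, at 150 ± 31.1 and 76.6 ± 29.0 CPM (1.28 ± 0.36, edgeR adjusted p = 0.0331). In that fit 4.11% of genes were called higher. Maf was named after its values were seen. Of 7 genes of nucleotide and adenosine handling above background, Panx1, a channel that releases ATP, rose there as well, at 98.7 ± 21.8 CPM in pregnant uterine Treg and 52.2 ± 13.99 CPM in CD4conv (1.19 ± 0.30, edgeR adjusted p = 0.0202), 1 of 7 against the same 4.11%. Adk, which phosphorylates adenosine, averaged 152 ± 90.8, 150 ± 70.5, 86.6 ± 20.0 and 96.3 ± 22.9 CPM, and Dpp4, a surface peptidase that in humans binds adenosine deaminase, 112 ± 30.4, 108 ± 19.5, 110 ± 35.0 and 91.5 ± 45.3 CPM in the 4 groups. Enpp1, another ectonucleotidase, averaged 79.6 ± 46.9, 60.0 ± 37.8, 56.0 ± 33.3 and 48.1 ± 18.4 CPM.

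Of the other genes listed as purine receptors, P2ry10 averaged 340 ± 205, 380 ± 155, 266 ± 82.9 and 261 ± 68.4 CPM in pregnant uterine Treg, uterine Treg, lymph node Treg and CD4conv. P2ry10 stands in the list by its symbol, which does not show that its product binds purines. P2ry14 averaged 54.3 ± 30.2, 37.6 ± 34.2, 53.3 ± 40.2 and 131 ± 32.3 CPM, P2rx4 41.6 ± 14.9, 33.9 ± 11.1, 35.5 ± 7.23 and 68.0 ± 39.9 CPM, and P2rx7, an ATP-gated channel, 33.5 ± 11.4, 65.4 ± 61.2, 37.0 ± 3.65 and 33.6 ± 7.82 CPM. Without the 5 libraries over 30% background, P2ry14 fell in uterine Treg against CD4conv (log2 fold change -3.76 ± 0.69, SE, edgeR adjusted p = 0.0101), in a fit that called 0.964% of genes lower and 0.326% higher. In that fit Fcgr2b also fell (-6.49 ± 1.17, edgeR adjusted p = 0.00915) and Irf4 rose (1.60 ± 0.32, edgeR adjusted p = 0.0189). The uterine Treg libraries kept had 0.354 and 2.32 CPM of Fcgr2b (1 and 13 counts), 2.48 and 14.6 CPM of P2ry14 and 284 and 176 CPM of Irf4. Those left out had 44.1 and 31.2 CPM of Fcgr2b, 61.1 and 72.3 CPM of P2ry14 and 160 and 118 CPM of Irf4. P2ry13, named for its calls in the same fit, had a count of 0 in the 2 uterine Treg libraries left, which allows up to 1.06 and 0.534 CPM, and in the 2 of pregnant uterine Treg left, which allows up to 0.2315 and 0.1975 CPM. It stood at 12.4 to 37.0 CPM in CD4conv (edgeR adjusted p = 0.0147 for uterine and 0.00708 for pregnant uterine Treg, where 0.317% of genes were called lower). In the libraries left out, P2ry13 was at 21.2 and 14.4 CPM in uterine Treg and at 18.4 and 0.280 CPM in pregnant uterine Treg. Of the other adenosine receptors, Adora1 averaged 16.4 ± 19.5, 13.7 ± 16.1, 10.2 ± 6.27 and 9.76 ± 6.29 CPM, Adora3 8.48 ± 10.04, 11.8 ± 7.25, 7.64 ± 4.68 and 11.7 ± 5.96 CPM, and Adora2b 1.24 ± 1.58, 0.356 ± 0.504, 1.495 ± 1.33 and 2.41 ± 1.51 CPM.

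Across the 16 libraries, on a log2(TMM-scaled CPM + 1) scale, the highest Pearson correlations among the 8 genes were 0.864 for Nt5e with Adora2a and 0.785 for Il10 with Ebi3. Nt5e also had 0.614 with Ebi3 and 0.567 with Il10, and Fgl2 had 0.590 with Entpd1. Ada reached at most 0.207, with Ebi3, and Il12a at most 0.224, with Fgl2. Il10 had -0.524 with Il12a and -0.559 with Fgl2. The points share libraries, groups and background, so these values describe the samples only. Among 8508 protein-coding genes with a mean of at least 20 CPM, the nearest to Il10 were Il2ra (0.868), Cst7 (0.855) and H2-Ob (0.834). Each had its highest mean in lymph node Treg, and Il2ra encodes CD25, by which lymph node and uterine Treg were gated apart. Those nearest to Nt5e were Tagap (0.966), Pitpnm1 (0.965) and Tnfaip3 (0.958), and those nearest to Adora2a were Cnst (0.965), Rbm48 (0.961) and Asb6 (0.952). Nearest to Fgl2 were Gng12 (0.823), Marcks (0.805) and the macrophage receptor Csf1r (0.800), and nearest to Entpd1 were Myo1c (0.846), Ero1l (0.772) and Tvp23b (0.759). Nearest to Il12a were I830077J02Rik (0.881), Cdh1 (0.880) and Srgap3 (0.877), each with its highest mean in CD4conv. By Spearman correlation, 8 of these 18 genes were again among the nearest 3.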

How the data were processed

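Per the labels' protocols, RNA of sorted cells was amplified with SMART-Seq v4, and Nextera XT libraries were read in pairs. The deposited values are the authors' raw read counts per gene. The submitters' processing notes name HISAT2, featureCounts, Trimmomatic, SAMtools and DESeq2 with GRCm38. Their versions are not given in sources used here. Single-library files were identical to the series table in 16 of 16 cases. GENCODE M21 named 49326 of the 49585 genes.

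Counts were tested with edgeR 4.0.16 in R 4.3.3 (quasi-likelihood, TMM, filterByExpr, robust, all 16 libraries, Benjamini-Hochberg over 30096 genes, threshold 0.05), checked on simulated data. The coefficient of variation between replicates was 0.812. The simulated data had less spread than that, so the check does not show what this fit can detect. Groups came from the labels. Separate pools are the replicates. Background came from 1429 receptor genes. The fit of genes above background, DESeq2 1.42.0 on all genes, other scalings and filters, left-out libraries and a replicate block were alternatives. Intervals and limits for a count of 0 cover counting error only.

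The 8 genes, the pathway lists and the markers were chosen with earlier results of these data known. Named genes are the 8, Foxp3 and Il2ra, up to 4 genes a list with the highest mean CPM, those past the threshold, in edgeR over all genes or an alternative fit, and the 3 genes nearest to each of the 8 with at least 20 CPM in a group. Il12b, Il27, the adenosine receptors, Cox6a2 and Gm16712 fall outside this rule and are named as partners, family members, a marker and an antisense gene. Of 58 listed pathway genes, Pnp was not matched and is not analysed here. Same-numbered libraries did not correlate above 0.1 in every pair, so numbers were not used as pairs.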

Additional observations from a re-analysis of the deposited data

Results flagged for a closer look

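In 2 of 32 sets of 4 libraries, 1 library stood far from the other 3 of its group, where chance alone flags about 1 set in 20. Fgl2 in CD4conv replicate 3 was at 154.4 CPM, against 32.6 to 35.9 CPM in the other 3 libraries, a gap of 0.973 of the group's range. Ada in CD4conv replicate 2 was at 26.26 CPM, against 12.97 to 14.4 CPM in the other 3, a gap of 0.89 of the range.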

How the results depend on the processing

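No gene of the 8 changed sides of the threshold except Il10 and Nt5e, and Adora2a and Nt5e in genes above background without pregnant uterine Treg replicate 4, as given, so that 1 test passed in genes above background and 1 without the 5 libraries over 30% background, against 0 over all genes. Of the alternative fold changes of the 8 genes, 445 kept their direction and side, 49 changed sign and 2 passed, apart from the fits of genes above background that left out 1 library. Of those, 10 of 32 passed in pregnant uterine Treg against CD4conv (Il10 in 8, Nt5e in 1 and Adora2a in 1) and 0 of 32 in each of the other comparisons. Counts of all genes called for uterine against lymph node Treg, uterine Treg against CD4conv, pregnant against non-pregnant uterine Treg and pregnant uterine Treg against CD4conv were 0, 156, 0 and 130. They were 61, 288, 0 and 396 in genes above background, 30, 335, 18 and 311 in DESeq2, 2, 427, 4 and 230 without the 5 libraries, and 78 in the last comparison with its 8 libraries alone. Leaving out 1 library gave 0, 72 to 170, 0 and 72 to 162. The counts fell by over 1.5 times without CD4conv replicates 2 and 3 (83 and 72) and uterine Treg replicates 1, 2 and 3 (82, 102 and 95) in the second comparison, and without CD4conv replicate 3 (72) and pregnant uterine Treg replicates 1 and 2 (86 each) in the last. Library totals without TMM moved the median log2 fold change of all genes from -0.06, -0.05, 0.11 and 0.07 to 0.10, 0.30, 0.04 and 0.35.

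Log2 fold changes that turned sign were small over all genes with all libraries, but some were larger once 1 library was left out. The cause was not tested. Il12a in uterine against lymph node Treg became 0.14 with DESeq2 size factors and in DESeq2, 0.20 without TMM and 0.11 with 8 libraries. Fgl2 in uterine Treg against CD4conv became 0.14 without TMM, 0.26 in genes above background and 0.12 without the 5 libraries, and in pregnant uterine Treg against CD4conv 0.27 and 0.092 in the same fits of genes above background and without the 5 libraries. Entpd1 in pregnant uterine Treg against CD4conv became 0.017 with DESeq2 size factors, 0.016 in DESeq2, 0.15 without TMM and 0.034 without the 5 libraries. In pregnant against non-pregnant uterine Treg, Il12a became -0.51 and Adora2a 0.0054 without the 5 libraries, Fgl2 0.033 with no filter and 0.0091 in genes above background, and Nt5e -0.048 in genes above background. Leaving out 1 library gave, for uterine against lymph node Treg, -0.31 to 0.41 (Il12a) and -0.075 to 0.23 (Entpd1). For uterine Treg against CD4conv it gave -0.15 to 0.50 (Ebi3), -1.01 to 0.61 (Fgl2) and -0.53 to 0.026 (Entpd1), and for pregnant uterine Treg against CD4conv -1.07 to 0.61 (Fgl2) and -0.45 to 0.29 (Entpd1). For pregnant against non-pregnant uterine Treg it gave -0.63 to 0.49 (Il12a), -0.82 to 0.77 (Fgl2), -0.11 to 0.45 (Entpd1), -0.42 to 0.76 (Nt5e) and -0.71 to 0.23 (Adora2a).

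Over the 4 comparisons, 14 pairs of same-numbered libraries correlated at -0.39 to 0.45. Of these, 5 were over 0.1 and 4 had their own number highest, so the numbers were not treated as pairs. With a replicate block, edgeR called 0, 164, 0 and 103 genes and none of the 8. Fgl2 in uterine Treg against CD4conv became 0.048 and Adora2a in pregnant against non-pregnant uterine Treg 0.32. Low depth and high background limit Ebi3, Il12a and Ada most.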
